A study of Mus musculus with 6 samples.

Results

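The unfolded protein response, the ATF4 arm of the integrated stress response and the heat-shock response were examined through 44 named mouse genes, all of which were present among the 57010 genes of the count table and all of which had enough counts to be tested. The genes were taken by name, from a list drawn up with earlier results of these data known, and were read in 3 arms, namely the ATF4 arm (8 genes), ER chaperones and degradation (20 genes, made up of 4 ER stress sensors and their transcription factors, 12 ER chaperones and 4 genes of ER-associated degradation, ERAD), and heat-shock proteins (16 genes). The data were 6 RNA-seq libraries of primary neonatal mouse cardiomyocytes (NMCMs), for which the labels give no strain or genotype, kept under hypoxia (HO). The paper took its NMCMs from C57BL/6 mice a few days old. Libraries V1 to V3 were the HO + Vehicle group and T4 to T6 the HO + β-SITO group, in which the hypoxic cells also received β-sitosterol (β-SITO), a plant sterol. Both groups were hypoxic, and no normoxic library was analysed here, so the comparison asks how β-SITO changed these transcripts in hypoxic cells and not how hypoxia did. How much β-SITO was given, and how long hypoxia lasted, is for these libraries not given in the sources used here.

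When unfolded proteins collect in the endoplasmic reticulum (ER), the sensors IRE1α (Ern1), PERK (Eif2ak3) and ATF6 are released from the chaperone BiP (Hspa5). IRE1α splices the mRNA of Xbp1, and XBP1 and ATF6 then drive genes of ER folding and ERAD, while PERK phosphorylates eIF2α, which lowers translation in general and raises translation of ATF4, a factor that drives amino acid genes and Ddit3, which encodes CHOP. In the cytosol, misfolded proteins release the factor HSF1, which drives the HSP70, HSP90, HSP40 and small heat-shock protein genes, and in heart muscle the small heat-shock proteins with BAG3 also guard the contractile filaments.

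The libraries held 16694734 to 18460522 counts, with a biological coefficient of variation of 6.52% within groups. Levels are given as CPM (counts scaled to library size with TMM factors), and a gene passed when its adjusted p in edgeR's quasi-likelihood test was under 0.05 over all 14799 tested genes. A differentially expressed gene (DEG) also changed by more than 2-fold. The comparison moved much of the transcriptome, since 33.8% of tested genes passed as lower and 33.0% as higher in the HO + β-SITO group. DEGs made up 10.1% (lower) and 12.8% (higher) of tested genes, and for 70.5% every library of one group lay above every library of the other. Nothing states that the libraries came from separate cultures, so p-values measure the spread between these samples, which may be technical. T4 to T6 carry a letter in their library names that V1 to V3 lack, and any separate preparation behind it and the treatment cannot be told apart.

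All 16 cardiomyocyte markers were detected. Their summed level was 7272 to 8403 CPM in V1 to V3 and 6401 to 10925 CPM in T4 to T6. In T4 to T6, 6 of the 16 were higher (against 33.0% of all tested genes) and 2 lower (against 33.8%). Of the 6, 4 were DEGs (against 12.8% of all tested genes). The same shares of all tested genes stand beside the marker counts that follow. In the study, the cells were parted from fibroblasts by their slower adhesion to the dish, and markers of other cell types were present, with none of those that follow at 0 in all libraries except among the erythroid ones. Myh6, Actc1 and Tnnt2 led the cardiomyocyte list, and Col3a1, Col1a1 and Col1a2 the fibroblast list. The 10 fibroblast markers summed to 30344 to 31593 CPM in V1 to V3 and 46134 to 47311 CPM in T4 to T6, where 7 of the 10 were higher and 2 lower. Smooth muscle markers (8 of 8 higher, from 1157 to 1256 up to 2052 to 2316 CPM), macrophage markers (8 of 12 higher and 2 lower, from 1307 to 1435 up to 2844 to 3497 CPM), endothelial markers (7 of 8 higher and 1 lower, from 680 to 799 up to 910 to 959 CPM) and epicardial markers (5 of 5 higher, from 53.3 to 58.9 up to 87.4 to 107.7 CPM) moved with the treatment as well. Flt1, the endothelial marker that fell, went from 533 ± 48 to 103.7 ± 8.9 CPM (mean ± SD, n = 3). It held most of the endothelial sum in V1 to V3, so that sum does not show how far the other markers rose. Erythroid markers were too low to test, with 3 of 5 at 0 in every library. The part of these cell types in the results that follow was not tested, and in bulk RNA fewer cells of a type and less RNA per cell cannot be told apart.

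Most of the 44 genes were lower in the HO + β-SITO group. In all, 37 genes fell (against 33.8% of all tested genes), 6 rose (against 33.0%) and Hsf1 did not pass. Of the 37, 11 were DEGs (against 10.1%), and no member was a DEG in the higher direction (against 12.8%). With library size alone, with upper quartile factors and with glmTreat against 2-fold, 7 were DEGs in place of 11. For 41 of the 44 genes the groups were fully apart (against 70.5%), the exceptions being Atf6, Hspb6 and Hsf1. The median log2 fold change of the 44 genes was -0.71, and that of all tested genes was -0.01. Without TMM factors, with library size alone, the median of all genes moved to 0.14, and 3816 genes passed as lower and 6175 as higher in place of 5007 and 4885. Together the 44 genes took 1.70% ± 0.029 (SD, n = 3) of the counts of the HO + Vehicle libraries and 1.03% ± 0.025 (SD, n = 3) of those of the HO + β-SITO libraries. Mitochondrially encoded genes took 1.19% to 1.32% of counts in V1 to V3 and 1.87% to 2.26% in T4 to T6, and removing them changed no call among the 44. Most of the difference in the share of the 44 genes lay in the ER chaperones. Their share was 0.912% ± 0.022 in V1 to V3 and 0.459% ± 0.016 in T4 to T6, a ratio of 1.98. The heat-shock proteins took 0.617% ± 0.0071 and 0.426% ± 0.0076.

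**Figure D1:**
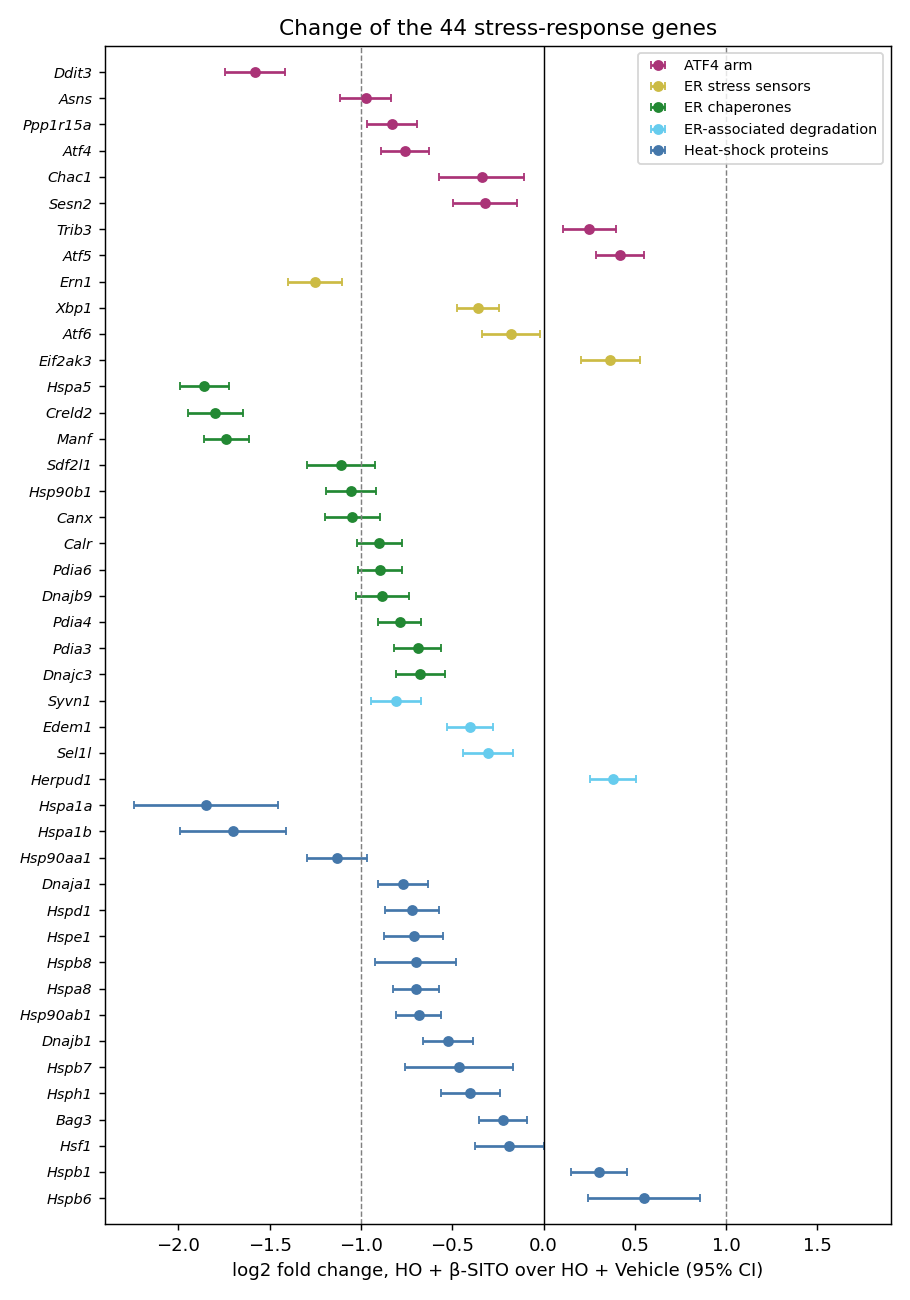
Log2 fold change of each of the 44 genes (x axis, HO + β-SITO over HO + Vehicle, edgeR, with 95% confidence intervals; dashed lines at 2-fold) by arm (colour), sorted within each arm. All 12 ER chaperones lie left of 0, while 6 genes (Trib3, Atf5, Eif2ak3, Herpud1, Hspb1 and Hspb6) lie right of it.

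In the ATF4 arm, 6 of 8 genes fell (against 33.8% of all tested genes) and 2 rose (against 33.0%). The median log2 fold change was -0.55, and 1 gene, Ddit3, was a DEG (against 10.1%). The fall was therefore not shared by all targets of ATF4: Ddit3, Asns, Ppp1r15a and Atf4 itself fell by at least 1.69-fold, Chac1 and Sesn2 by at most 1.26-fold, and Trib3 and Atf5 rose. Atf4, which encodes the transcription factor, was at 243, 279.9 and 261 CPM in V1 to V3 and 155, 157 and 151 CPM in T4 to T6. Every HO + β-SITO library was below every HO + Vehicle library, and the log2 fold change was -0.76 ± 0.062 SE, edgeR adjusted p = 3.51e-08. The count table says nothing of translation, which is where eIF2α phosphorylation is known to raise ATF4.

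Ddit3 (ENSMUSG00000025408, chr10:127126643-127132157 on the plus strand, GRCm39), the gene of the pro-apoptotic factor CHOP, measured 81.04, 91.4 and 93.9 CPM in V1 to V3 and 29.9, 31.9 and 27.4 CPM in T4 to T6. The groups were far apart, and the gene was 2.99-fold lower (log2 fold change -1.58 ± 0.077 SE, edgeR adjusted p = 5.97e-11). Ddit3 overlaps Mars1 on the other strand, and whether reads were counted by strand is not given in the sources used here, so reads of the pair cannot be told apart where they overlap. Mars1, which encodes the methionyl-tRNA synthetase, had a log2 fold change of -0.23 ± 0.059 (SE; edgeR adjusted p = 0.00353). Relative to Atf4, Ddit3 counts stood at 0.340 ± 0.017 per Atf4 count in V1 to V3 and 0.192 ± 0.011 in T4 to T6 (SD, n = 3), a ratio taken within each library and so free of the scaling between libraries.

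Asns, the asparagine synthetase gene, stood at 148, 154 and 147 CPM in V1 to V3 and 82.2, 69.98 and 76.5 CPM in T4 to T6. It lay just inside the 2-fold line (log2 fold change -0.97 ± 0.065 SE, edgeR adjusted p = 3.01e-09), with no overlap between groups, and without T4 it was a DEG at -1.03. Ppp1r15a, whose product GADD34 leads the phosphatase to eIF2α and so ends the response, was at 67.1, 67.4 and 66.5 CPM in V1 to V3 and 35.5, 39.1 and 38.6 CPM in T4 to T6. Its HO + Vehicle libraries were within 1 CPM of each other, and the log2 fold change was -0.83 ± 0.064 SE, edgeR adjusted p = 1.72e-08.

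Chac1, which degrades glutathione, and Sesn2, a stress-induced inhibitor of mTORC1 signalling, showed small decreases. Chac1 measured 13.01, 13.1 and 13.3 CPM in V1 to V3 and 9.04, 10.5 and 11.7 CPM in T4 to T6. Its lowest library was T4 and the groups did not overlap, with a log2 fold change of -0.34 ± 0.11 SE, edgeR adjusted p = 0.0126. For Sesn2, the libraries gave 34.4, 33.2 and 30.8 CPM in V1 to V3 and 27.4, 27.8 and 23.6 CPM in T4 to T6 and the log2 fold change was -0.32 ± 0.083 SE, edgeR adjusted p = 0.00313. Neither passed with library size alone (edgeR adjusted p = 0.136 and 0.08), and Chac1 did not pass without V3 (0.0533) or without T4 (0.0618).

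Trib3 and Atf5 went the other way, although both are textbook targets of this arm. Trib3 encodes a pseudokinase that restrains ATF4 and AKT, and it stood at 31.6, 34.2 and 33.8 CPM in V1 to V3 and 39.6, 38.95 and 40.03 CPM in T4 to T6. Each HO + β-SITO library was above each HO + Vehicle library by a small margin (log2 fold change 0.25 ± 0.068 SE, edgeR adjusted p = 0.00423). Atf5, a bZIP factor that is known in the response to mitochondrial stress, was at 126, 130.01 and 117 CPM in V1 to V3 and 173, 168 and 158 CPM in T4 to T6. The groups did not overlap and the gene was 1.34-fold higher (log2 fold change 0.42 ± 0.061 SE, edgeR adjusted p = 2.12e-05), while Nup62, which overlaps it on the other strand, had a log2 fold change of -0.08 ± 0.060 (SE; edgeR adjusted p = 0.258). Counted against Atf4 in the same library, Atf5 went from 0.477 ± 0.036 to 1.08 ± 0.036 (SD, n = 3), and Trib3 against Ddit3 from 0.375 ± 0.015 to 1.33 ± 0.12.

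**Figure D2:**
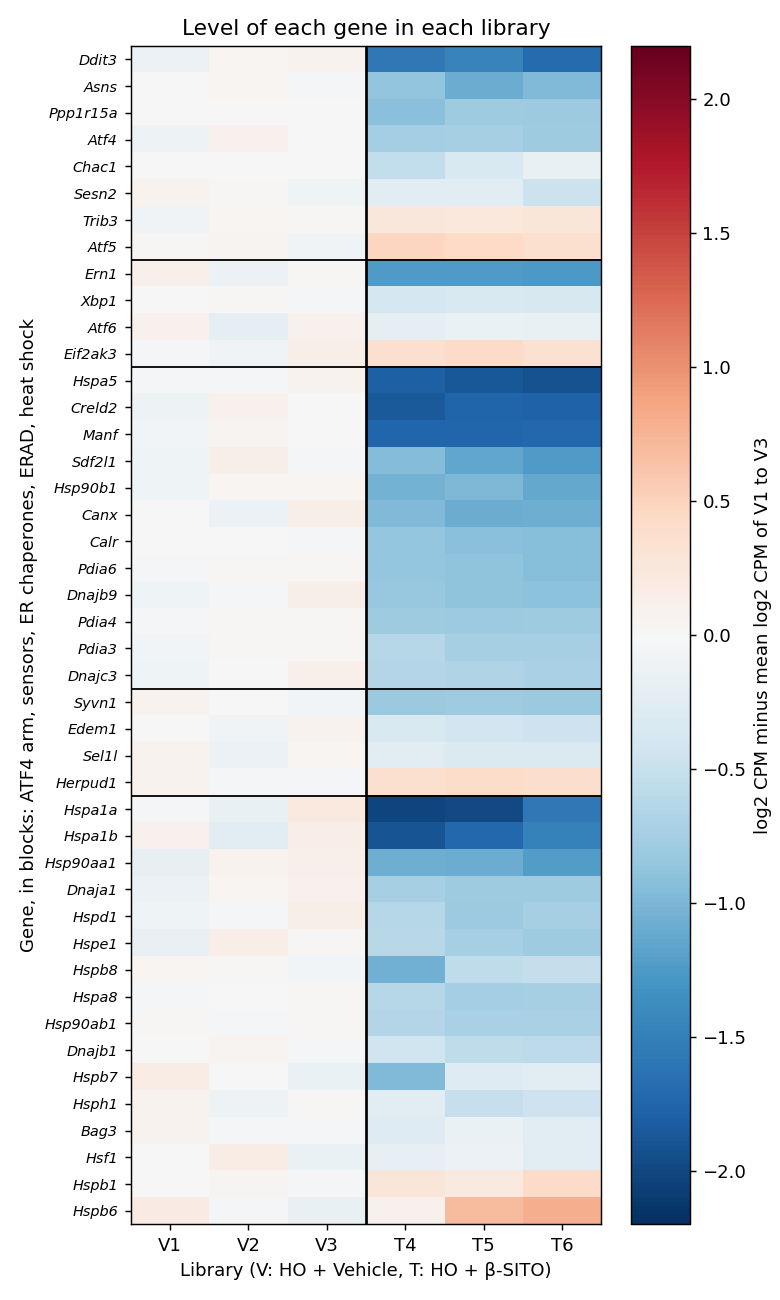
Log2 CPM of each gene in each library minus the mean log2 CPM of V1 to V3 (colour, blue lower and red higher), with libraries in columns and genes in rows, in blocks by arm. Within each group the 3 libraries look alike for most genes, and T4 stands apart from T5 and T6 at Hspb6, Hspb7 and Hspb8.

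The genes around ATF4 that are not among the 8 members were read from a list of other known targets. Of its 23 tested genes, 17 fell (against 33.8% of all tested genes) and 4 rose (against 33.0%). Their median log2 fold change was -0.51. Among those with a mean of at least 100 counts, the largest changes were those of Nupr1, a stress-induced chromatin protein (332 ± 35 and 56.5 ± 7.6 CPM, mean ± SD, n = 3, log2 fold change -2.55 ± 0.095 SE), of Slc7a11, the cystine transporter (12.5 ± 1.5 and 2.94 ± 0.34 CPM, -2.09 ± 0.14), and of Cebpb, a bZIP factor (38.3 ± 2.1 and 17.4 ± 1.3 CPM, -1.14 ± 0.082). Slc38a2, an amino acid transporter of high level, did not pass (log2 fold change 0.16 ± 0.093, edgeR adjusted p = 0.148). Aminoacyl-tRNA synthetase genes, many of which ATF4 drives, fell in 12 of 13 cases (against 33.8% of tested genes) and rose in none (against 33.0%). Xpot, the tRNA exportin gene read with them, fell by 0.36 ± 0.068 on the log2 scale. Wars1, whose gene also responds to interferon, had the largest fall of them (log2 fold change -1.65 ± 0.059), followed by Cars (-1.01 ± 0.057) and Aars (-0.84 ± 0.057), and Nars, the other of high level, fell by 0.75 ± 0.060 on the log2 scale. Among 10 genes of eIF2α, its other kinases, its exchange factor and its phosphatase, 8 fell (against 33.8%) and none rose (against 33.0%). Eif2ak2, which encodes PKR, the kinase activated by double-stranded RNA, went from 286 ± 19 to 36.9 ± 0.72 CPM (log2 fold change -2.95 ± 0.067). Eif2s1, the gene of eIF2α itself, fell by 0.88 ± 0.081, Eif2b2 by 0.54 ± 0.064 and Ppp1r15b, the constitutive partner of the phosphatase, by 0.37 ± 0.063 on the log2 scale.

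The sensor genes at the head of the unfolded protein response moved in different directions. Of the 4 genes, 3 were lower (against 33.8% of tested genes) and 1 was higher (against 33.0%). Ern1, which encodes IRE1α, measured 92.9, 79.4 and 87.7 CPM in V1 to V3 and 36.3, 36.6 and 36.1 CPM in T4 to T6. It was a DEG, 2.38-fold lower (log2 fold change -1.25 ± 0.069 SE, edgeR adjusted p = 2.83e-10), and the HO + β-SITO libraries lay within 1 CPM of each other. Eif2ak3, which encodes PERK, stood at 28.4, 27.7 and 31.98 CPM in V1 to V3 and 37.3, 39.3 and 37.01 CPM in T4 to T6. It rose (log2 fold change 0.37 ± 0.076 SE, edgeR adjusted p = 0.000548) with no overlap between groups, so the genes of both sensor kinases changed in opposite directions.

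Xbp1, the target of IRE1α, and Atf6, a sensor that is itself a transcription factor, had small log2 fold changes. Xbp1 was at 208, 212 and 205 CPM in V1 to V3 and 159, 165 and 163 CPM in T4 to T6, and its log2 fold change was -0.36 ± 0.054 SE, edgeR adjusted p = 2.82e-05. The counts sum the spliced and the unspliced Xbp1 mRNA, so the activity of IRE1α on it was not measured. Atf6 measured 122, 100 and 122 CPM in V1 to V3 and 98.3, 103 and 102 CPM in T4 to T6, with V2 inside the range of the HO + β-SITO group (log2 fold change -0.18 ± 0.074 SE, edgeR adjusted p = 0.0443). An exact permutation test of Atf6 CPM gave p = 0.3 (two-sided; 0.1 is the smallest p that 3 libraries against 3 allow), and the call was lost in 10 of 14 alternatives.

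The ER chaperones moved in 1 direction, since all 12 fell (against 33.8% of tested genes), 6 of them as DEGs (against 10.1%). All 12 also had groups that did not overlap (against 70.5%). Their median log2 fold change was -0.97. Hspa5 (ENSMUSG00000026864, chr2:34661982-34667559 on the plus strand, GRCm39), the gene of the HSP70 of the ER, stood at 2532, 2556 and 2734 CPM in V1 to V3 and 749, 719 and 691 CPM in T4 to T6. It was 3.62-fold lower (log2 fold change -1.86 ± 0.063 SE, edgeR adjusted p = 6.41e-13), the lowest fold change of the 44 and close to that of Hspa1a (-1.85). On its own it took 0.247% ± 0.0096 of HO + Vehicle counts and 0.0756% ± 0.0031 of HO + β-SITO counts (SD, n = 3). Per kilobase of exon, a scale on which genes can be set side by side, Hspa5 had 617 CPM in the HO + Vehicle group, the third of the 44 after Hsp90ab1 (844) and Calr (786), and 170 CPM with β-SITO, the fifth.

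Creld2 and Manf, which encode ER proteins that are made and partly secreted under ER stress, fell by nearly as much. Creld2 was at 89.6, 103 and 96.9 CPM in V1 to V3 and 26.8, 28.3 and 28.2 CPM in T4 to T6, a difference of 3.47-fold (log2 fold change -1.80 ± 0.070 SE, edgeR adjusted p = 3.63e-12). Manf measured 334, 361 and 349 CPM in V1 to V3 and 104, 104 and 105 CPM in T4 to T6, and the HO + β-SITO libraries lay within 2 CPM of each other (3.34-fold lower, log2 fold change -1.74 ± 0.058 SE, edgeR adjusted p = 5.09e-13). Manf overlaps Rbm15b on the same strand and Dcaf1 on the other, whose log2 fold changes were 0.32 ± 0.074 and -0.47 ± 0.074 (SE).

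The other 3 DEGs of the group were close to the 2-fold line. Sdf2l1, a partner of BiP, stood at 45.7, 53.3 and 47.2 CPM in V1 to V3 and 24.98, 22.1 and 20.6 CPM in T4 to T6 (log2 fold change -1.11 ± 0.087 SE, edgeR adjusted p = 1.94e-08). Hsp90b1, the HSP90 of the ER known as GRP94, was at 911, 998 and 1004 CPM in V1 to V3 and 471, 491 and 443 CPM in T4 to T6 (log2 fold change -1.05 ± 0.064 SE, edgeR adjusted p = 9.15e-10). Canx, the membrane-bound lectin chaperone calnexin, measured 1129, 1023 and 1220.2 CPM in V1 to V3 and 573, 528 and 529 CPM in T4 to T6 (log2 fold change -1.05 ± 0.070 SE, edgeR adjusted p = 3.1e-09). In each case every HO + Vehicle library was far above every HO + β-SITO library. All 3 kept a passing adjusted p but dropped under 2-fold with library size alone (-0.96, -0.90 and -0.90), and Canx also did without V3 (-0.96) or without T5 (-0.998). When edgeR's glmTreat tested against a 2-fold change, Sdf2l1, Hsp90b1 and Canx did not pass (adjusted p = 0.191, 0.392 and 0.488), so with library size alone and with glmTreat the arm held 4 DEGs in place of 7.

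Calr, the soluble lectin partner of calnexin and the most abundant of the remaining chaperones, stood at 2279, 2289 and 2222 CPM in V1 to V3 and 1262, 1196 and 1185 CPM in T4 to T6. It fell by 0.90 ± 0.058 (SE) on the log2 scale (edgeR adjusted p = 2.02e-09). Pdia3, Pdia4 and Pdia6, the disulphide isomerase genes, had mean levels of 974, 386 and 513 CPM over V1 to V3 and 604, 223 and 276 CPM over T4 to T6, with log2 fold changes of -0.69 ± 0.060, -0.79 ± 0.055 and -0.90 ± 0.057 (SE). The HSP40 co-chaperones of BiP moved in the same range. Dnajb9 was at 81.2, 85.1 and 95.2 CPM in V1 to V3 and 48.7, 46.9 and 46.3 CPM in T4 to T6 (log2 fold change -0.88 ± 0.069 SE, edgeR adjusted p = 1.97e-08), and Dnajc3, also known as an inhibitor of PERK, measured 177, 187 and 204 CPM in V1 to V3 and 121, 119 and 115 CPM in T4 to T6 (log2 fold change -0.68 ± 0.063 SE, edgeR adjusted p = 1.4e-07).

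Of 4 ERAD genes, whose products draw misfolded proteins out of the ER, 3 were lower (against 33.8% of tested genes). None of them was a DEG, and the median log2 fold change was -0.35 beside -0.97 for the chaperones. Syvn1, which encodes the ubiquitin ligase HRD1, stood at 66.8, 63.3 and 60.8 CPM in V1 to V3 and 35.9, 37.2 and 36.1 CPM in T4 to T6 (log2 fold change -0.81 ± 0.065 SE, edgeR adjusted p = 2.68e-08). Edem1, which sorts misfolded glycoproteins, was at 194, 184 and 204 CPM in V1 to V3 and 153, 145 and 142 CPM in T4 to T6, and Sel1l, the partner of HRD1, measured 299, 258 and 290.3 CPM in V1 to V3 and 236, 226 and 225 CPM in T4 to T6. Both fell by at most 1.32-fold, with log2 fold changes of -0.40 ± 0.060 and -0.30 ± 0.064 (SE). Herpud1, a membrane component of the HRD1 complex that is induced by ER stress, stood at 73.97, 68.02 and 68.5 CPM in V1 to V3 and 89.7, 92.9 and 91.4 CPM in T4 to T6. Unlike its partners it rose, with no overlap between groups (log2 fold change 0.38 ± 0.059 SE, edgeR adjusted p = 4.08e-05). Its counts per Hspa5 count in the same library went from 0.0270 ± 0.0021 to 0.127 ± 0.0065 (SD, n = 3).

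**Figure D3:**
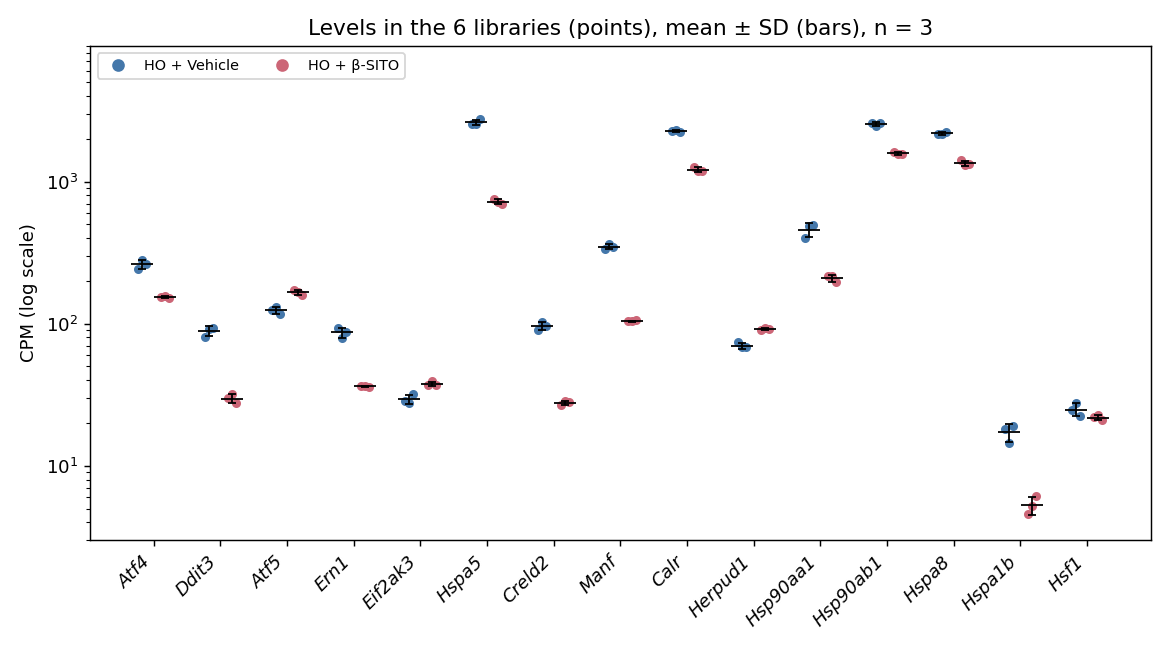
CPM (log axis) of 15 of the genes in each library (points, blue HO + Vehicle, red HO + β-SITO), with mean and SD in black (n = 3). Hspa5, Creld2, Manf, Ddit3 and Hspa1b show the widest gaps, Atf5, Eif2ak3 and Herpud1 lie higher in the HO + β-SITO group, and the groups overlap for Hsf1.

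Other genes of the ER leaned the same way in lists drawn up beside the members. Of 38 other genes of ER folding and translocation, 30 fell (against 33.8% of tested genes) and 3 rose (against 33.0%). Their median log2 fold change was -0.57. The largest changes were those of Ero1a, the oxidase of the ER and a hypoxia-inducible gene (358 ± 22 and 116 ± 3.0 CPM, log2 fold change -1.63 ± 0.062 SE), Hyou1, a large HSP70 relative (452 ± 17 and 182 ± 8.7 CPM, -1.31 ± 0.060), and Spcs2, a subunit of the signal peptidase (214 ± 13 and 98.6 ± 2.7 CPM, -1.12 ± 0.061). The most abundant, P4hb, a disulphide isomerase that also serves collagen hydroxylation, fell by 0.21 ± 0.057 on the log2 scale, and Txndc5 was at 0.00 ± 0.054 (95% confidence interval -0.11 to 0.12) and did not pass. Of 20 other ERAD genes, 15 fell (against 33.8% of tested genes) and 1 rose (against 33.0%). Selenos (-1.18 ± 0.065), Edem2 (-0.84 ± 0.065) and Derl2 (-0.83 ± 0.062) came first. Vcp, the ATPase that pulls proteins out of the membrane, was at -0.48 ± 0.056. Of 8 further ER-bound transcription factors and the proteases that release them, 4 fell (against 33.8%) and 2 rose (against 33.0%). Among them were Creb3l1 (-1.43 ± 0.063), Nfe2l1, which drives proteasome genes (1122 ± 67 and 417 ± 3.5 CPM, -1.43 ± 0.062), and Creb3 (-0.84 ± 0.058), while Mbtps1, the site-1 protease that cuts ATF6, was higher at 0.17 ± 0.054 (edgeR adjusted p = 0.013).

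Since the ER chaperones moved together, the promoters of the members were read for the sequence that ATF6 is known to bind with NF-Y, the ER stress response element (ERSE, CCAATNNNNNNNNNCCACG). RefSeq windows from 250 bases before to 50 bases after the annotated start (GRCm38.p6) were at hand for 38 of the 44 genes, and not for Atf6, Manf, Hspa8, Hsp90aa1, Hsp90ab1 and Hsf1. Both strands were searched, and the motifs were picked after the expression values were known. The ERSE was found in 39 of 32851 windows (0.119%), which is 37 of 27025 genes (0.137%), and in 8 of the 38 members. These were Hspa5, Hsp90b1 (at 2 places), Dnajc3, Creld2, Pdia6, Calr, Canx and Syvn1. The stretches of 5 chaperones and of Syvn1 are shown, since they let the element be compared between genes with larger and smaller falls. The bases that match are in capitals, and a match on the other strand reads CGTGG then ATTGG.
Hspa5: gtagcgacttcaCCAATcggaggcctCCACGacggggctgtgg
Creld2: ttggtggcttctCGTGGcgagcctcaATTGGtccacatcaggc
Hsp90b1: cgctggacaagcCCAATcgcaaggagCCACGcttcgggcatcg
Calr: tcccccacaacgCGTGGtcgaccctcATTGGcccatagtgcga
Canx: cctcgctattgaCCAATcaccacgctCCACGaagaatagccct
Syvn1: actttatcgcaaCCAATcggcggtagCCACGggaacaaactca
They lie at chr2:34772013-34772055 (plus strand), chr15:88819508-88819550 (plus), chr10:86705626-86705668 (minus), chr8:84847063-84847105 (minus), chr11:50325788-50325830 (minus) and chr19:6046520-6046562 (plus). All 8 members with the element fell. Of the 11 ER chaperones with a window, the 7 with a match had log2 fold changes of -1.86 to -0.68 (median -1.05). The 4 without a match had -1.11 to -0.69 (median -0.84), so the ranges overlapped. Only the exact letters were searched, so a gene without a match may still hold an ERSE of other letters or outside the window. Beyond the members, 10 tested genes held the element, with a median log2 fold change of -0.08. Of these, 4 fell (against 33.8% of all tested genes) and 3 rose (against 33.0%). Alg12, a gene of N-glycan synthesis, was among these 10 genes and among the 4 that fell. Its log2 fold change was -1.004 ± 0.090 SE, edgeR adjusted p = 9.23e-08. Creld2 lies head to head with Alg12, with starts 328 bases apart (GRCm39). Whether both genes match on the same letters was not examined. A match is a run of letters and not evidence of binding, which these data do not measure.

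The same windows were searched for the amino acid response element that ATF4 binds with C/EBP factors (CARE, TGATGNAA). It was found in 3.97% of all windows, in 4.51% of genes with a window, and in 4 members, Asns, Chac1, Trib3 and Herpud1. The stretches of Asns, Chac1 and Herpud1 are shown because these genes hold the same short element and did not move alike, with log2 fold changes of -0.97, -0.34 and 0.38.
Asns: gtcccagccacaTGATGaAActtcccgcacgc
Chac1: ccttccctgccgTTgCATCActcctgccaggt
Herpud1: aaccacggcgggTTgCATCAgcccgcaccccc
They lie at chr6:7693213-7693244 (minus), chr2:119351037-119351068 (plus) and chr8:94386305-94386336 (plus), and in Chac1 and Herpud1 the element is on the other strand. The short unfolded protein element TGACGTGG (UPRE) was in 0.676% of windows (0.714% of genes) and in 0 of the 38 members. For the CARE and the UPRE too, only the exact letters were searched, so other forms or places were not covered.

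**Figure D4:**
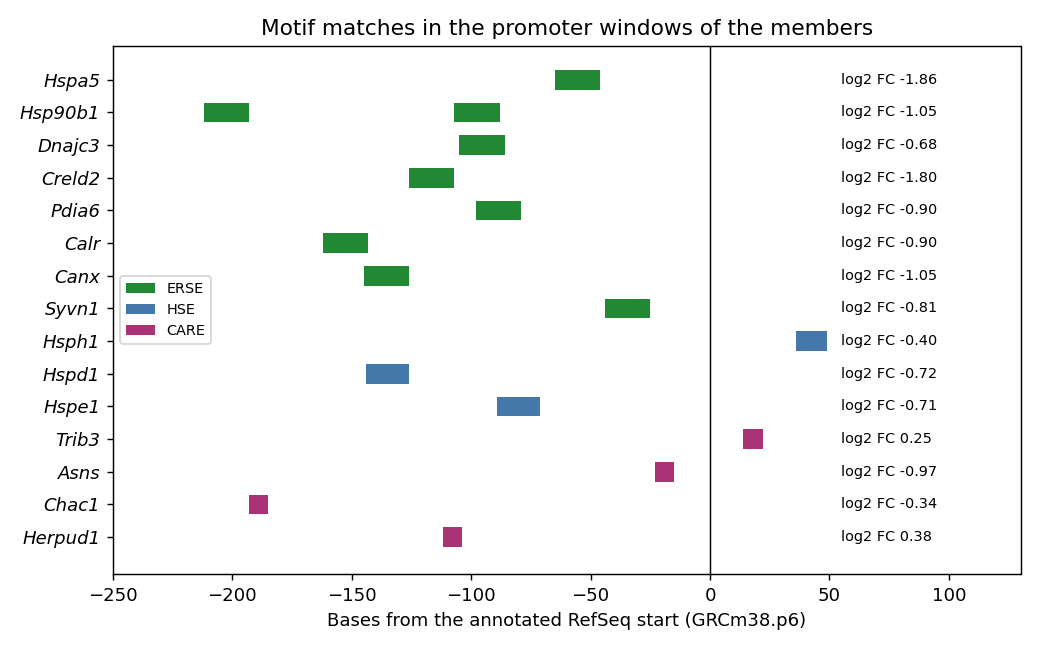
Position of each motif match (bars, coloured by motif) in the promoter windows of the 15 members that held one, in bases from the annotated start, with each gene's log2 fold change at the right. Matches to the ERSE lie upstream of the start in all 8 genes. All 8 were lower in the HO + β-SITO group, as were the 4 ER chaperones with a window but no match. The 4 genes with a CARE match include 2 that were higher.

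Of the 16 heat-shock genes, 13 fell (against 33.8% of tested genes), 2 rose (against 33.0%) and 1 did not pass. Their median log2 fold change was -0.69, and 3 of them were DEGs (against 10.1%), namely Hspa1a, Hspa1b and Hsp90aa1. Hspa1a and Hspa1b, the stress-inducible HSP70 genes, are near-identical copies on chromosome 17, so reads could be split between them. Hspa1a was at 6.44, 5.96 and 7.75 CPM in V1 to V3 and 1.64, 1.69 and 2.24 CPM in T4 to T6, and Hspa1b measured 18.2, 14.4 and 18.97 CPM in V1 to V3 and 4.57, 5.17 and 6.09 CPM in T4 to T6. Both were low in every library, Hspa1a with 30 to 43 counts in the HO + β-SITO group. Their summed counts, an addition made after the data were seen, gave 24.6, 20.4 and 26.7 CPM in V1 to V3 and 6.22, 6.86 and 8.33 CPM in T4 to T6. The sum was lower by 1.74 ± 0.12 on the log2 scale (edgeR adjusted p = 3.38e-09), with no overlap between groups. Reads that fit both copies may have gone uncounted, and the sum would not hold them.

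Hspa8, the constitutive HSP70 of the cytosol, stood at 2152, 2159.6 and 2225 CPM in V1 to V3 and 1408, 1301 and 1319.6 CPM in T4 to T6. The groups were well apart, with a log2 fold change of -0.70 ± 0.059 SE, edgeR adjusted p = 5.06e-08. Counted against Hspa8 in the same library, Hspa5 went from 1.20 ± 0.028 to 0.536 ± 0.015 (SD, n = 3), so in all 3 treated libraries less Hspa5 was counted per Hspa8 than in any vehicle library.

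Both cytosolic HSP90 genes fell. Hsp90aa1 (ENSMUSG00000021270, chr12:110657039-110669162 on the minus strand, GRCm39), the inducible one, was at 401, 483 and 493 CPM in V1 to V3 and 218, 215 and 196 CPM in T4 to T6. V1 was the lowest of its group, and the gene was 2.19-fold lower (log2 fold change -1.13 ± 0.077 SE, edgeR adjusted p = 3.88e-09). Hsp90ab1, the constitutive one, measured 2584, 2449.6 and 2562 CPM in V1 to V3 and 1622, 1551 and 1553 CPM in T4 to T6 (log2 fold change -0.68 ± 0.058 SE, edgeR adjusted p = 5.33e-08). The count ratio of Hsp90aa1 to Hsp90ab1 was 0.155 to 0.197 in V1 to V3 and 0.126 to 0.139 in T4 to T6. The call of Hsp90aa1 as a DEG was lost with library size alone (log2 fold change -0.98) and under glmTreat (adjusted p = 0.0903).

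The co-chaperones followed over a smaller range. Dnaja1, an HSP40 of the cytosol, stood at 219, 248 and 256 CPM in V1 to V3 and 145, 139.6 and 139.7 CPM in T4 to T6 (log2 fold change -0.77 ± 0.065 SE, edgeR adjusted p = 4.82e-08). Dnajb1, the inducible HSP40, was at 68.3, 71.9 and 66.9 CPM in V1 to V3 and 50.9, 46.6 and 46.5 CPM in T4 to T6 (log2 fold change -0.52 ± 0.065 SE, edgeR adjusted p = 3.54e-06). Hsph1, an HSP110 that exchanges the nucleotide of HSP70, measured 108, 94.2 and 104 CPM in V1 to V3 and 85.5, 71.5 and 74.4 CPM in T4 to T6 (log2 fold change -0.40 ± 0.075 SE, edgeR adjusted p = 0.000225). In all 3 the groups did not overlap. Bag3, which links HSP70 to small heat-shock proteins and selective autophagy, stood at 123, 113 and 113 CPM in V1 to V3 and 95.02, 105 and 98.9 CPM in T4 to T6. Its fall was small (log2 fold change -0.22 ± 0.062 SE, edgeR adjusted p = 0.00524) and did not pass with library size alone (edgeR adjusted p = 0.296).

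Hsf1, the transcription factor of the response, was at 24.6, 27.6 and 22.4 CPM in V1 to V3 and 21.9, 22.7 and 20.9 CPM in T4 to T6. T4 to T6 lay inside or just under the HO + Vehicle range, and the gene did not pass (log2 fold change -0.19 ± 0.088 SE, edgeR adjusted p = 0.0727, 95% confidence interval -0.38 to 0.00, exact permutation test p = 0.2). Hsf1 is known to act through its protein state, which RNA does not show.

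Hspd1 and Hspe1, the mitochondrial HSP60 and HSP10 that work as 1 folding chamber, lie head to head on chromosome 1 and overlap by 112 bases in the table. Hspd1 measured 226, 233 and 264 CPM in V1 to V3 and 156, 138 and 145 CPM in T4 to T6 (log2 fold change -0.72 ± 0.069 SE, edgeR adjusted p = 2.09e-07). Hspe1 stood at 102, 126 and 117 CPM in V1 to V3 and 74.8, 68.9 and 66.7 CPM in T4 to T6 (log2 fold change -0.71 ± 0.077 SE, edgeR adjusted p = 7.67e-07). The pair fell side by side. Both promoter windows hold the letters of the heat-shock element (HSE, 3 units, GAANNTTCNNGAA or TTCNNGAANNTTC). Such a match was found in 0.603% of all windows, in 0.662% of genes with a window, and in 3 members, Hspd1, Hspe1 and Hsph1. Only these exact letters were searched, so a gene without a match may still hold an HSE of other letters or outside the window. The stretch that the windows of Hspd1 and Hspe1 share is shown, on the strand of Hspe1 (chr1:55088047-55088088, GRCm38.p6), with every matching unit in capitals.
Hspe1 and Hspd1: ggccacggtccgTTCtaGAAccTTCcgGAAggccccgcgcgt
It holds 2 overlapping matches, so both genes are counted on the same letters. Of 56 other tested genes with such a match, 21 fell (against 33.8% of all tested genes) and 16 rose (against 33.0%).

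The small heat-shock proteins, which hold unfolding proteins without ATP, split in direction. Hspb1, the widely expressed HSP27, was at 38.8, 40.6 and 37.7 CPM in V1 to V3 and 47.02, 45.2 and 51.9 CPM in T4 to T6, and rose with no overlap (log2 fold change 0.30 ± 0.072 SE, edgeR adjusted p = 0.00172). Hspb8, the partner of BAG3, measured 137, 135 and 127 CPM in V1 to V3 and 63.9, 89.9 and 92.4 CPM in T4 to T6, and fell (log2 fold change -0.70 ± 0.10 SE, edgeR adjusted p = 2.51e-05). Both groups of libraries were apart for these genes. Hspb7, which is enriched in heart muscle, stood at 225, 200.1 and 183 CPM in V1 to V3 and 104, 166 and 172 CPM in T4 to T6 (log2 fold change -0.46 ± 0.14 SE, edgeR adjusted p = 0.00795). Hspb6, also known as HSP20 and enriched in muscle, was at 28.2, 24.4 and 22.1 CPM in V1 to V3 and 26.5, 40.1 and 42.9 CPM in T4 to T6, with T4 inside the HO + Vehicle range (log2 fold change 0.55 ± 0.14 SE, edgeR adjusted p = 0.00336, exact permutation test p = 0.2).

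In Hspb6, Hspb7 and Hspb8, T4 was lower than T5 and T6. As a percentage of the mean of T5 and T6, T4 stood at 61.3% to 70.1% for these 3 genes and at 81.2% to 117% (median 103%) for the other 41. The 16 cardiomyocyte markers showed the same gap, at 35.3% to 74.1% (median 59.7%). These groupings were made after the values were seen, and the part of cardiomyocyte content in the 3 genes was not tested. Without T4 the log2 fold changes were 0.74, -0.26 and -0.55. Hspb7 did not pass in 4 of 14 settings, namely DESeq2 (adjusted p = 0.065) and, in edgeR, upper quartile factors (adjusted p = 0.0514), library size alone (0.0537) and without V1 (0.0597).

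**Figure D5:**
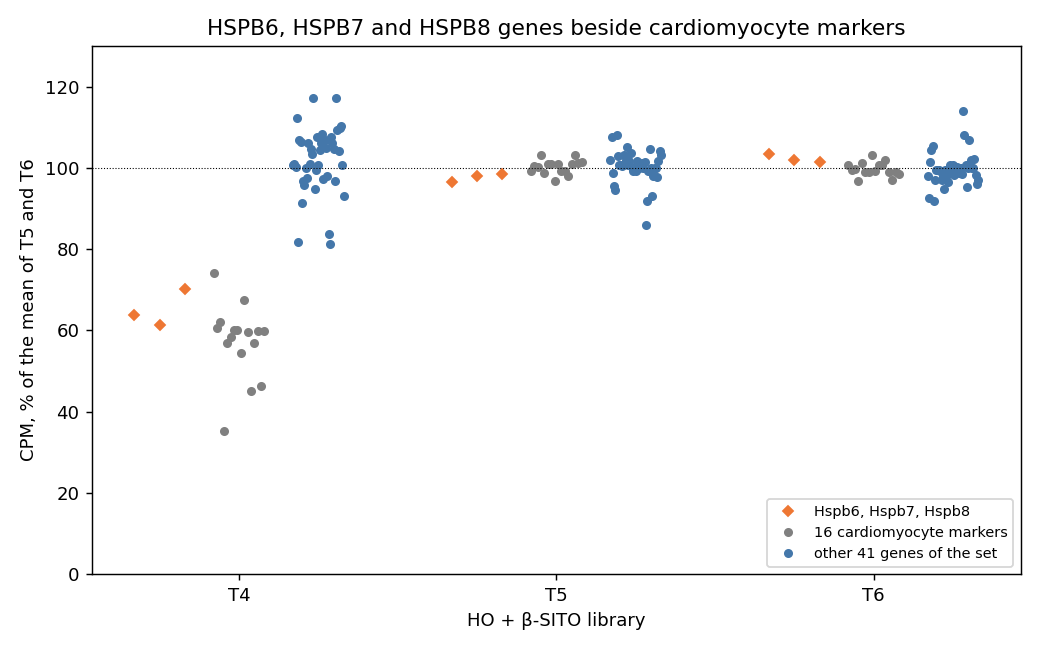
CPM in each HO + β-SITO library as a percentage of the mean of T5 and T6 (dotted line at 100%) for Hspb6, Hspb7 and Hspb8 (orange diamonds), the 16 cardiomyocyte markers (grey) and the other 41 genes of the set (blue). In T4 the 3 small heat-shock genes and all 16 markers lie below 80%, and the other 41 genes lie at 81.2% or above.

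Of 35 other tested heat-shock and co-chaperone genes, 16 fell (against 33.8% of tested genes), 6 rose (against 33.0%) and 13 did not pass. Their median log2 fold change was -0.15. Stip1, which joins HSP70 to HSP90, had the largest fall (413 ± 8.3 and 138 ± 2.9 CPM, mean ± SD, n = 3, log2 fold change -1.58 ± 0.056 SE). The largest rises were those of Hspa12b (5.14 ± 0.44 and 18.9 ± 1.5 CPM, 1.88 ± 0.11) and Hspa12a (5.07 ± 0.44 and 17.7 ± 1.3 CPM, 1.80 ± 0.11), distant relatives of HSP70, of which Hspa12b is known from endothelial cells. Of the 3 endothelial markers of highest level, Cdh5 and Pecam1 rose, with log2 fold changes of 1.84 ± 0.078 and 1.84 ± 0.062, and Flt1 fell (533 ± 48 and 103.7 ± 8.9 CPM, -2.36 ± 0.080). The part of endothelial cells in the change of Hspa12b was not tested.

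Of the 44 genes, 21 overlap another gene in the table, 16 of them one on the other strand, and in 8 the overlapping gene had more than 10% of the member's counts. Beside those given above, these were Syvn1 with Mrpl49 (log2 fold change of the overlapping gene 0.13 ± 0.092), Hspb6 with Lin37 (-0.12 ± 0.11) and Proser3 (0.46 ± 0.21), and Dnaja1 with Smu1 (-0.43 ± 0.063). The values of these 8 genes are uncertain to that extent.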

How the data were processed

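RNA-seq had been run on 6 samples of hypoxic NMCMs, grouped by the treatment in their labels. The values deposited by the authors are raw featureCounts counts per gene in 1 table, not normalized. The submitters' processing notes also name FastQC, HISAT2 and GRCm39, without versions, and strand settings are not given in the sources used here. The kit is an Illumina one in the labels and an ABclonal one in the paper. The members and lists were chosen with earlier results of these data known.

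Genes were filtered with filterByExpr and compared with R 4.3.3 and edgeR 4.0.16 (TMM factors, quasi-likelihood test, Benjamini-Hochberg adjustment over 14799 genes), and the fit was tested on simulated data. Alternatives were DESeq2 1.42.0, limma 3.58.1 (voom), glmTreat, other scalings and filters, removal of mitochondrially encoded genes, and leaving out each library. All 44 members are named. Of other pathway lists, the text names the 3 largest changes (mean count 100 or more) and the 2 highest levels, and of the cardiomyocyte, fibroblast and endothelial lists the 3 highest levels. Xpot, Mars1, Alg12 and other overlapping genes were added after their values were seen. A gene chosen by the rule is not reported here. Exon lengths came from GENCODE vM21. Shares cover the summed counts of a list over the library total. The study's tests on proteins, cells and mice were not analysed here.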

Additional observations from a re-analysis of the deposited data

How the results depend on the processing

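Over all settings run, the log2 fold changes of the 44 genes kept their direction, and 595 values kept their side of the threshold as well. The 22 that no longer passed were values of Atf6 (10 settings), Hspb7 (4), Chac1 (4), Sesn2 (2) and Bag3 (2), and Hsf1 passed without V3 (log2 fold change -0.24, edgeR adjusted p = 0.0385). The number of DEGs lower among ER chaperones and degradation was 7, and it was 4 with upper quartile factors, with library size only and with glmTreat against 2-fold. In the ATF4 arm it was 1, and it ranged from 1 to 2 when each library was left out in turn, Asns being added without T4. The counts by arm were otherwise within 1.5 times those reported. Upper quartile factors moved the median log2 fold change of all genes to 0.136, with 3855 genes lower and 6126 higher. No paired analysis was possible because the groups share no replicate number (1 to 3 and 4 to 6). With 3 libraries a group, an exact permutation test of a single gene cannot go below 0.1, and Hspa1a, the lowest member, rests on 30 to 125 counts a library.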

Other observations

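Folding machines outside the ER were read as well. The chaperonin CCT folds actin and tubulin in the cytosol. Of its 8 subunit genes, 5 fell (against 33.8% of tested genes), none rose (against 33.0%) and 3 did not pass. Cct3 had the largest fall (248 ± 3.3 and 138 ± 4.7 CPM, mean ± SD, n = 3, log2 fold change -0.84 ± 0.056 SE), followed by Cct6a (-0.63 ± 0.057) and Cct7 (-0.47 ± 0.055). Cct2, which is part of the same ring, was at -0.06 ± 0.058 (95% confidence interval -0.19 to 0.06, edgeR adjusted p = 0.369). Of 10 mitochondrial chaperones and proteases, 7 fell (against 33.8%) and none rose (against 33.0%). Htra2, a protease between the mitochondrial membranes, was the DEG among them (66.8 ± 5.9 and 28.7 ± 1.2 CPM, -1.22 ± 0.076), while Yme1l1 (-0.89 ± 0.087), Lonp1 (-0.79 ± 0.058) and the HSP70 gene Hspa9 (-0.73 ± 0.059) changed by less than 2-fold.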
